A study of Mus musculus with 10 samples.

Results

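The mRNA levels of 9 genes that write, maintain or remove DNA methylation were followed through the loss of Pontin, the loss of Oct4 and the knockdown of linc1253 in mouse embryonic stem (ES) cells. The 9 genes are Dnmt1, Uhrf1, Dnmt3a, Dnmt3b, Dnmt3l, Tet1, Tet2, Tet3 and Tdg, matched by symbol to 9 of the 22713 Ensembl gene identifiers in the deposited tables, and each passed the filter on low values in every comparison. Poly(A) mRNA was sequenced in 8 libraries, and chromatin immunoprecipitated (ChIP) with an antibody against Pontin or GFP was sequenced in 2. Pontin (gene symbol Ruvbl1) is an AAA+ ATPase of chromatin-remodelling complexes, Oct4 (Pou5f1) is a transcription factor required for pluripotency, and linc1253 is a long intergenic noncoding RNA.

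The Pontin series was made from Pontinf/f; CreER ES cells, derived from blastocysts, in which 4-hydroxy tamoxifen (OHT) activates a Cre recombinase that removes exon 3 of both floxed Pontin alleles. It gave 1 untreated library (called WT) and 1 library each after 3 days (OHT 3D) and 4 days (OHT 4D) of OHT. Oct4 was depleted in ZHBTc4 ES cells, a line in which tetracycline (Tc) shuts off the Oct4 transgene that the cells live on, and 1 library was made after 2 days (Tc 2D). ZHBTc4 ES cells without Tc also received control shRNA lentivirus or shlinc1253 lentivirus for 4 days, with 2 libraries each, and untreated ZHBTc4 ES cells gave both ChIP libraries. The cells were grown with serum and LIF, and which cultures had fibroblast feeders is not stated. All comparisons with WT share that 1 library, no library of vehicle-treated cells was analysed here, and Tc 2D differs from WT in line as well as in treatment. Comparisons of 1 library with another carry no p-value: a gene was called where its log2-fold-change, the difference of log2(CPM + 1), was above 0.58 in size.

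In mammals a methyl group is placed on cytosines of CpG dinucleotides. Dnmt3a and Dnmt3b place it on unmethylated DNA, helped by Dnmt3l, which has no catalytic activity of its own, and Dnmt1, brought to replicating DNA by Uhrf1, copies it to the daughter strand. Tet enzymes oxidize 5-methylcytosine, and Tdg excises the more oxidized forms so that base excision repair can restore cytosine. ES cells hold both arms at once, with Dnmt3l and Tet1 typical of the pluripotent state.

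In NCBIM37 the maintenance genes lie at chr9:20711650-20757317 (Dnmt1) and chr17:56442744-56462909 (Uhrf1). The Dnmt3 genes lie at chr12:3806007-3914443 (Dnmt3a), chr2:153475186-153513466 (Dnmt3b) and chr10:77504692-77526367 (Dnmt3l). The demethylation genes lie at chr10:62267318-62361866 (Tet1), chr3:133126643-133207354 (Tet2), chr6:83312367-83391672 (Tet3) and chr10:82092573-82113544 (Tdg).

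The promoters of these genes differ in how much of the enzymes' own substrate they hold. RefSeq gives 16 start sites for the 9 genes, and the 250 bases before each were counted for CpG, beside a median of 6 CpG over 32851 RefSeq windows. Dnmt3l, whose mRNA fell most in Oct4-depleted ES cells, has 3 windows with 5, 4 and 3 CpG. These are below the median, but more than 44.4%, 37.8% and 29.0% of all windows. Tet3, which was the gene called up there, has 17, and Tet2, which changed at OHT 3D, has 51, more than 99.9% of all windows. Of the rest, the richest windows of Dnmt3a, Uhrf1, Dnmt1, Dnmt3b, Tdg and Tet1 hold 40, 30, 26, 21, 19 and 15 CpG. The other windows of Dnmt3a hold 38 and 15, that of Uhrf1 10 and those of Dnmt1 7 and 2. The octamer ATGCAAAT, an Oct4-family motif, was searched on both strands and stood in 0 of the 16 windows and in 1.60% of all windows. TTTGGCGC or TTTCGCGC, forms of the E2F motif searched likewise, stood in 2 of the 16, in windows of Dnmt1 and Uhrf1, and in 0.654% of all windows. A match to letters is not a bound site. The windows of the 3 genes are shown 5′ to 3′ with each CpG in capitals, since they span the range of CpG content among the genes that changed, with the positions where the RefSeq sequence (GRCm38.p6) matched the NCBIM37 build of the deposited files.

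Dnmt3l, first start, plus strand, chr10:77504782-77505031: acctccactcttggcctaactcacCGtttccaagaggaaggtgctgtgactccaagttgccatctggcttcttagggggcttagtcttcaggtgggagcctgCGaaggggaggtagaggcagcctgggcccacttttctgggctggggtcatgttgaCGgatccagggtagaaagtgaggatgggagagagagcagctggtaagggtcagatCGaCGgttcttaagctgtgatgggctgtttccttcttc
Tet3, minus strand, chr6:83391673-83391922: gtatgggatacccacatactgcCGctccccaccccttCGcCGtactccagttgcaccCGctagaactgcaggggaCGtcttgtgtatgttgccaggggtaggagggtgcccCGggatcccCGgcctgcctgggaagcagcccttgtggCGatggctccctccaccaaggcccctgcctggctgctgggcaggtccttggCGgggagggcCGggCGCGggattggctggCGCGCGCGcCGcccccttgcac
Tet2, minus strand, chr3:133207355-133207604: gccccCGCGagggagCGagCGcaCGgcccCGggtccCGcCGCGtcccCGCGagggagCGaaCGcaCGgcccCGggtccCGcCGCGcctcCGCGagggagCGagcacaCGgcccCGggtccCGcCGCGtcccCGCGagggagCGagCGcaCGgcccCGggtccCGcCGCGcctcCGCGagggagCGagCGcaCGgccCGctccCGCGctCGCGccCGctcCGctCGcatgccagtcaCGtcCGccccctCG

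The libraries held between 17187595 and 37951742 reads on genes. Ruvbl1 stood at 198 CPM in WT and at 33.3 and 50.9 on days 3 and 4 of OHT (85.0 at Tc 2D), and Pou5f1 was at 21.1 CPM at Tc 2D against 301 in WT and 582 to 708 in the other ZHBTc4 libraries. The level of linc1253 was not analysed here. The 12 pluripotency markers matched summed to 3860 CPM in WT and 709 at Tc 2D. At Tc 2D 9 of the 9 expressed trophectoderm markers were called up, where 23.9% of all genes were. Markers of fibroblasts moved with OHT: 17 of 18 expressed were called up at both OHT times, among them Tnc and Acta2, where 6.01% and 6.48% of all genes were, and the list summed to 880.0 CPM in WT, 1197 and 1215 on the OHT days and 698 under Tc. Fn1, a matrix gene that is the 1 expressed marker not called with OHT, made up 794 CPM of the sum in WT, and without it (a sum taken after the values were seen) the list came to 86.2, 556, 659 and 183 CPM in the same order. At Tc 2D 4 of the 18 were up, Vim and Pdgfrb among them, and 8 down, where 23.9% of all genes were up and 25.8% down. Lum alone was at 0 in WT, and Acta2, Dcn, Lum and Postn were at 0 at Tc 2D. Of the 9 trophectoderm markers 6 were also up and 1 down at OHT 3D and 7 up at OHT 4D. Of 10 markers of primitive endoderm 3 were up and 1 (Hnf4a) down at OHT 3D, 7 were up and 0 down at OHT 4D, and 4 were up and 1 down at Tc 2D. Of all genes, 5.88% were down at OHT 3D and 8.89% at OHT 4D. In bulk RNA, fewer cells of a type and less RNA per cell cannot be told apart.

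Levels of different genes were set side by side as CPM per kb of merged exons, which come out low for a gene with many alternative exons such as Dnmt3a. In WT the maintenance pair and Dnmt3l led, with Uhrf1 at 103, Dnmt3l at 86.0 and Dnmt1 at 82.9 CPM per kb. Dnmt3b followed at 53.1, Tet1 at 27.7 and Tdg at 24.8. Dnmt3a at 9.03, Tet2 at 8.52 and Tet3 at 0.75 were the lowest. Uhrf1 and Dnmt3l were also the highest in the 4 shRNA libraries of ZHBTc4, while Tet2 stood there at 28.7 to 33.6 CPM per kb, against 24.7 to 39.5 for Tet1, so that the ranges of Tet1 and Tet2 overlapped. These levels come from 2 tables normalized separately.

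**Figure D1:**
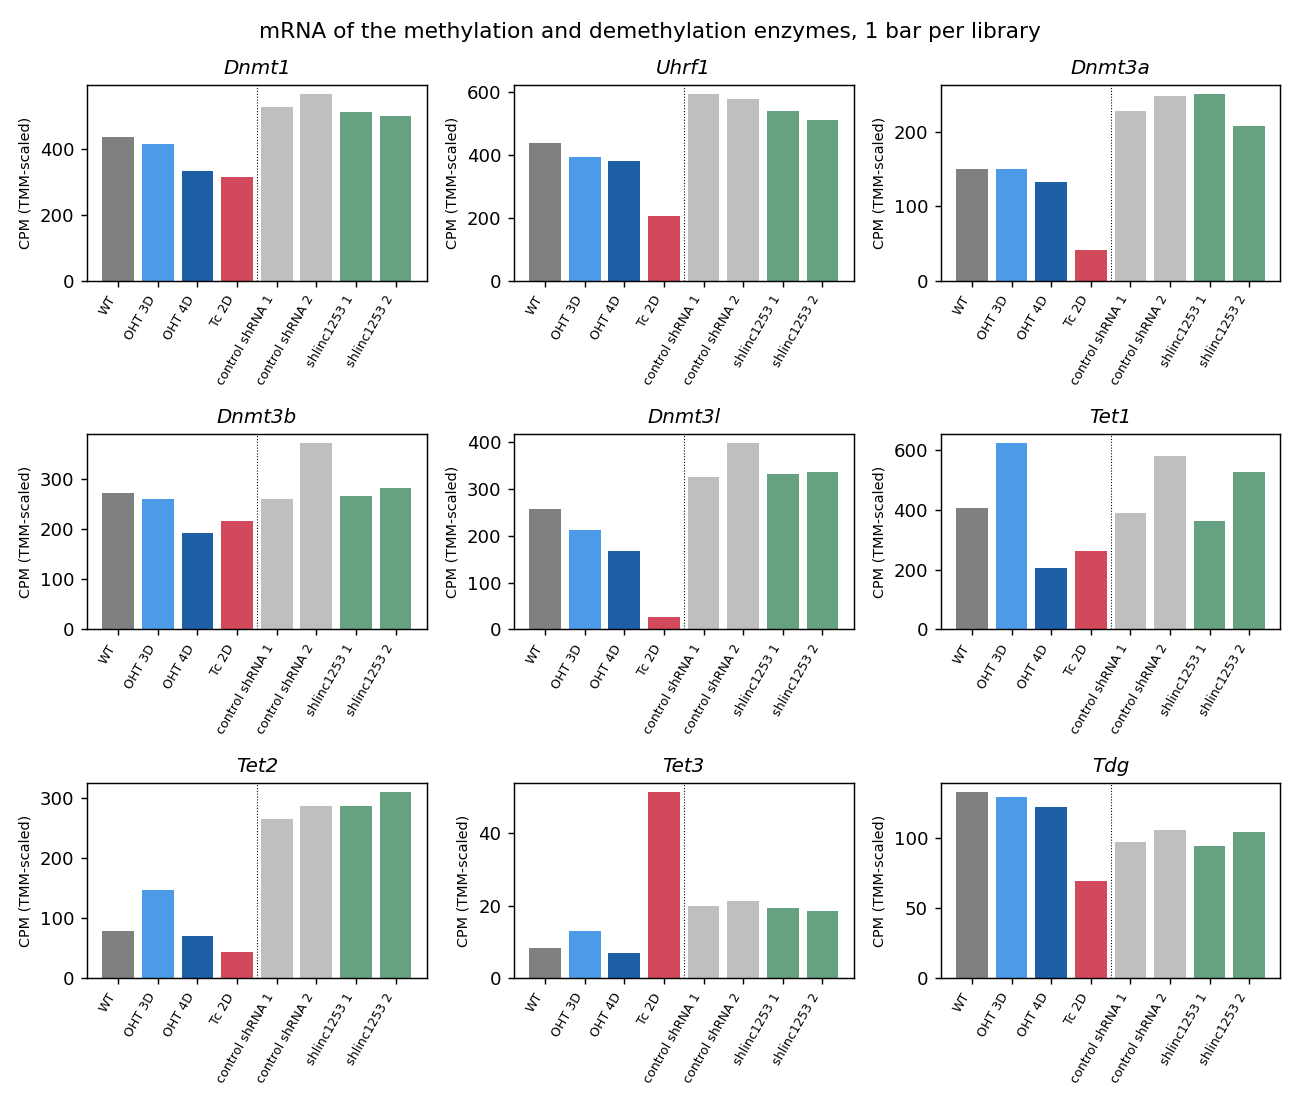
CPM of each gene, 1 bar per library; the dotted line separates the table with WT, OHT 3D, OHT 4D and Tc 2D from the separately normalized table of the shRNA libraries. Dnmt3l and Dnmt3a are lowest at Tc 2D (26.6 and 41.9 CPM) and Tet3 is highest there (51.5 CPM).

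The first question was how the enzymes behaved when ES cells lost Oct4. Against WT, 6 of the 9 genes were called down at Tc 2D (Dnmt3l, Dnmt3a, Uhrf1, Tdg, Tet2 and Tet1), where 25.8% of 13449 genes were, and 1 was called up (Tet3), where 23.9% were. Dnmt1 and Dnmt3b were not called. The median of the 9 was -0.85 on the log2 scale, beside -0.06 over all genes.

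The enzymes that start methylation on new sites separated. Dnmt3l, the accessory subunit, stood at 257 CPM in WT, 211 and 168 after 3 and 4 days of OHT and 26.6 with Oct4 depleted. This was a log2-fold-change of -3.22 for Tc 2D (95% counting interval of the ratio, -3.38 to -3.16 without the added 1), and 0.78% of genes lay lower. Dnmt3a stood at 150.3, 150.8, 133 and 41.9 CPM in the same order and changed by -1.82 (-1.94 to -1.75). Dnmt3b did not follow them, with 271, 259, 192 and 216 CPM and a log2-fold-change of -0.32 at Tc 2D. Per kb of exon, Dnmt3l made up 58.1% of the summed Dnmt3a, Dnmt3b and Dnmt3l mRNA in WT, 54.2% to 55.2% with OHT and 60.3% to 62.7% in the shRNA libraries, but 16.6% at Tc 2D, where Dnmt3b made up 78.8%.

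**Figure D2:**
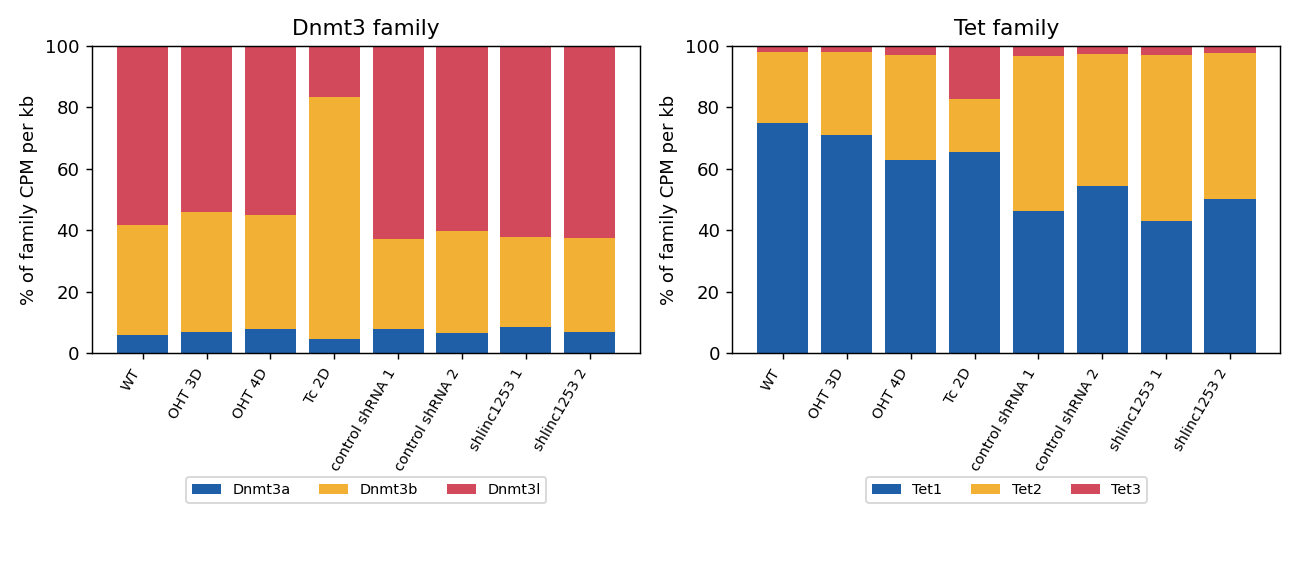
Share of each gene in the summed CPM per kb of merged exons of its family, 1 bar per library. Tc 2D has the highest share of Dnmt3b in the Dnmt3 family (78.8%) and of Tet3 in the Tet family (17.1%). Tet2 makes up 42.9% to 54.0% of the Tet family in the shRNA libraries and 17.3% to 34.2% in the others.

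Of the maintenance pair, Uhrf1, which reads hemimethylated CpG, had 438 CPM in WT, 396 and 382 on the OHT days and 207 without Oct4. The Tc 2D change was -1.08 (-1.13 to -1.03). Dnmt1, the maintenance methyltransferase, stood at 436, 415, 334 and 315 CPM and changed by -0.47. Of 24 genes of S phase, 16 were called down and 1 up at Tc 2D, among them Pola1 at -1.48 and Ccne1 at -1.20, beside 25.8% of all genes down and 23.9% up. At either OHT time 1 of the 24 was called down and 0 up, where 5.88% and 8.89% of all genes were down. Whether fewer cells in S phase had a part in the Uhrf1 value was not tested.

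The Tet genes moved in opposite directions. Tet3 had 8.31 CPM in WT, 13.2 and then 7.10 under OHT and 51.5 under Tc, from 186, 291, 162 and 1460 recovered reads. Its change at Tc 2D was 2.49 (2.41 to 2.86), higher than 98.8% of genes. Tet2 stood at 78.4, 147, 69.5 and 43.1 CPM and changed by -0.85 (-0.97 to -0.76). Tet1, the main Tet gene of WT cells, stood at 408, 623, 204 and 261 CPM and changed by -0.64 (-0.68 to -0.60), just past the limit of 0.58, with Dnmt1 at -0.47 the nearest gene short of it. The share of Tet3 in the Tet family per kb was 2.0% in WT and 17.1% at Tc 2D. Tdg, the glycosylase that follows the Tet enzymes, stood at 133, 130, 122 and 69.7 CPM and changed by -0.92 (-1.02 to -0.85).

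Because WT is another line, Tc 2D was also set against the 2 control shRNA libraries of ZHBTc4, with all 8 libraries on 1 median-ratio scale. These controls share the line but differ in infection, sequencer and culture. Again 6 genes were called down and 1 up, where 23.6% and 23.5% of 13984 genes were, but not the same 6: Dnmt1 was now called at -0.60 and Tdg was not at -0.35. Dnmt3l changed by -3.52, Dnmt3a by -2.29 and Uhrf1 by -1.31, each further than against WT, and Dnmt3b again was not called at -0.33.

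The choice of control moved Tet2 and Tet3 most. On this scale Tet2 stood at 83.8 CPM in WT, 46.6 at Tc 2D and 250.1 and 272 in the ZHBTc4 controls, so that its change grew from -0.85 to -2.46. Tet3 stood at 8.88 in WT, 55.6 at Tc 2D and 18.9 and 20.2 in the controls, so that its change shrank from 2.49 to 1.46. Tet2 was thus lower and Tet3 higher at Tc 2D than in either control. Line, infection and sequencer cannot be told apart in the difference between WT and the ZHBTc4 controls.

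**Figure D3:**
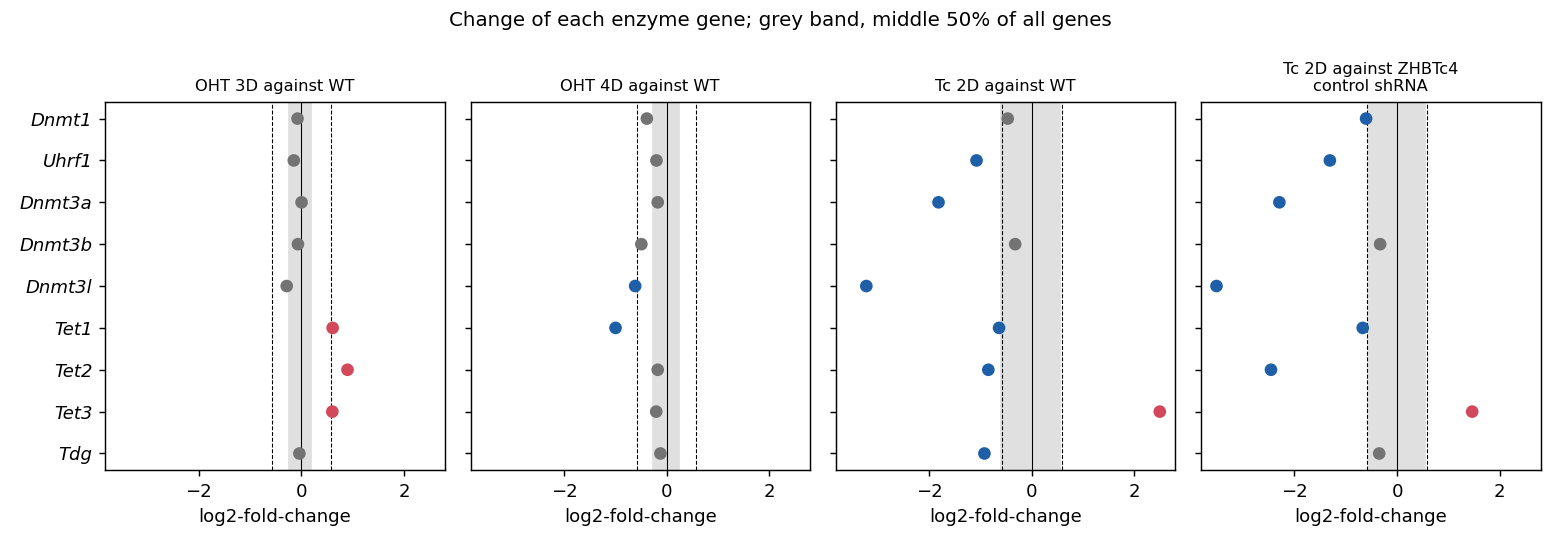
Log2-fold-change of each gene at OHT 3D, OHT 4D and Tc 2D against WT, and of Tc 2D against the ZHBTc4 control shRNA libraries; dashed lines mark 0.58 in size, the grey band the middle 50% of all genes, red and blue points genes called up and down. Dnmt3l is lowest (-3.22 and -3.52) and Tet3 highest (2.49 and 1.46) in both Tc 2D panels.

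The wider pathway was read from lists chosen by function. Of 13 writers and maintenance partners, 6 were called down at Tc 2D and 1 up, where 25.8% of all genes were down and 23.9% up. Zfp57, which protects imprints, changed by -1.16, Pcna, the replication clamp, by -1.12, and Hells, a remodeller needed for methylation, by -1.10, while Uhrf2, the paralogue of Uhrf1, was up by 0.87. Of 8 expressed modulators known in ES cells, 5 were down and 1 up: Dppa3, which guards maternal marks and restrains Uhrf1, went from 55.7 to 0.247 CPM, and Prdm14, a repressor of the de novo enzymes, from 19.5 to 0.775 CPM. Dppa3 was already lower in the ZHBTc4 controls, at 4.15 and 12.4 CPM, so that its change of -5.51 against WT was -2.65 against them. Prdm14 stood at 29.1 and 23.2 CPM there and changed by -3.80. Zfp57 changed by -2.34 against the controls and Trim28, not called against WT, by -1.71. Zfp42, a modulator at 0.31 against WT, changed by -3.58 against the controls. It stood at 61.4 CPM in WT, 76.2 at Tc 2D and 1210 and 914 in the controls. The CPM given here are as deposited, with the shRNA libraries normalized separately from the others. Changes against the controls were taken on the 1 median-ratio scale. Against the controls 6 modulators were down and 2 up, and 6 writers and partners were down and 1 up. Of all genes, 23.6% were down and 23.5% up there.

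The counts for the repair and supply genes stand beside a background in which 25.8% of all genes were down and 23.9% up at Tc 2D, and shares near it are not a result about these lists. Of 16 expressed genes of base excision and deamination, 6 were down, led by Apobec3 at -2.98 and Gadd45a at -2.54, and 4 were up, including Gadd45b at 1.55. Of 11 expressed genes of the methyl donor cycle, 5 were down and 2 up, with Ahcy, which clears the methylation product S-adenosylhomocysteine, at -1.53 and Mat2a, which makes S-adenosylmethionine, at -1.33. Of 8 readers of methylated DNA, 2 were down and 3 up, and of 7 genes that make or use 2-oxoglutarate, the Tet cosubstrate, 3 were down and 0 up. Against the ZHBTc4 controls Ahcy and Mat2a were also down, at -1.56 and -1.60, while Gadd45a changed by -0.78 and Apobec3 by -2.19. In that comparison, where 23.6% of all genes were down and 23.5% up, the 2-oxoglutarate genes counted 0 down and 1 up. The readers counted 0 down and 3 up. The 17 genes of base excision and deamination counted 5 down and 5 up, and the 11 of the methyl donor cycle 5 down and 1 up.

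The counts for genes known to be silenced by promoter methylation outside the germ line differed between the comparisons with WT and with the ZHBTc4 controls. Of 12 expressed at Tc 2D against WT, 8 were up and 2 down, led by Taf7l at 2.72 and Hormad1 at -2.43, where 23.9% of all genes were up and 25.8% down. Against the ZHBTc4 controls 3 of 13 were up and 5 down, where 23.5% of all genes were up and 23.6% down, so that the count up lies at the background. DNA methylation itself was not measured.

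Pontin depletion moved fewer of the enzymes. At OHT 3D the 3 Tet genes were called up, where 6.01% of all genes were, and none of the 9 was called down, where 5.88% were. Tet2 changed by 0.90 (0.82 to 0.99), Tet1 by 0.61 (0.57 to 0.65) and Tet3 by 0.60 (0.39 to 0.94). The 6 other genes lay between -0.28 (Dnmt3l) and 0.01 (Dnmt3a), while Tet1 and Tet3 lay just past the limit. The median of the 9 was -0.04, beside -0.02 over all genes.

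At OHT 4D no Tet gene was still called up. Tet1 was called down at -0.99 (-1.05 to -0.95) and Dnmt3l at -0.61 (-0.67 to -0.56), where 8.89% of all genes were, and none of the 9 was called up, where 6.48% were, with a median of -0.20 over the 9. Tet2 at -0.17, Tet3 at -0.20, Dnmt3b at -0.49, Dnmt1 at -0.38, Uhrf1 at -0.20, Dnmt3a at -0.17 and Tdg at -0.12 were not called. Set against OHT 3D directly, Tet1 at -1.60, Tet2 at -1.07 and Tet3 at -0.81 were called down, where 8.84% of genes were, and 0 were up, where 5.47% were. With 1 library a day, the difference between the days has no replicate check.

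Transcript length moved with these values. At OHT 4D the 1205 genes with 8 kb or more of merged exons had a median of -0.39, and 33.0% of them were called down, while the 319 genes under 1 kb had a median of 0.28. At OHT 3D the same classes had medians of 0.05 and -0.16, and at Tc 2D 0.26 and -0.75. The 3 Tet genes and Dnmt3a are long, with 14710 bases for Tet1, 9203 for Tet2, 11086 for Tet3 and 16642 for Dnmt3a, and Dnmt3l is the shortest of the 9 with 2988.

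After the running median over length was subtracted, Tet1 at OHT 4D went from -0.99 to -0.47 and was no longer called, and Dnmt3l remained called at -0.67. At OHT 3D Tet2 remained called at 0.86, while Tet1 at 0.52 and Tet3 at 0.55 did not. Between the 2 OHT days Tet1 at -1.02 and Tet2 at -0.71 remained called and Tet3 at -0.35 did not. At Tc 2D the 7 calls kept their direction, with Dnmt3l at -3.00, Dnmt3a at -2.33, Tet1 at -1.15 and Tet3 at 2.14. What set the trend with length, such as RNA quality or library preparation, was not tested.

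**Figure D4:**
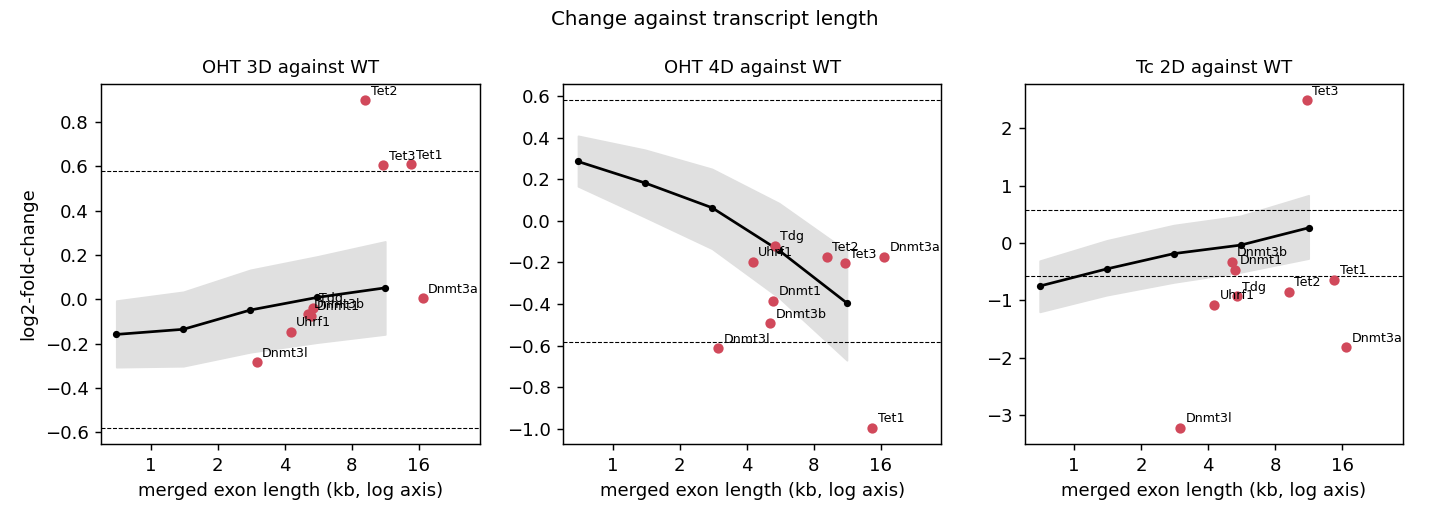
Log2-fold-change against merged exon length (kb, log axis) at OHT 3D, OHT 4D and Tc 2D; red points are the 9 genes, the black line joins medians of all genes in 5 length classes and the grey band their middle 50%. At OHT 4D the class of 8 kb or more has a median of -0.39, and Tet1 lies below it at -0.99.

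Tet1 also varied between libraries that carry the same label. It stood at 388 and 581 CPM in the 2 control shRNA libraries and at 363 and 526 in the 2 shlinc1253 libraries, a 1.5-fold and a 1.45-fold difference, against 1.53-fold for OHT 3D over WT. Of all genes, 3.10% and 2.60% differed by more than the limit within these pairs. The pairs also differed in markers of other cells. Of 16 expressed fibroblast markers, 5 were past the limit upward in replicate 2 of the control and 8 in replicate 2 of shlinc1253, with 0 downward in either, and of 10 of primitive endoderm 1 and 5 were. Tnc stood at 0.0923 and 2.97 CPM in the controls and at 0.0258 and 13.5 in the shlinc1253 libraries. Length moved within the pairs too. Replicate 2 against 1, genes of 8 kb or more had medians of 0.11 in the controls and 0.085 with shlinc1253. Genes under 1 kb had -0.12 and -0.074. The part of other cells or of length in the spread of Tet1 was not tested. Tet2 differed by 1.08-fold within each pair and Tet3 by 1.06-fold. Dnmt3b differed by 1.43-fold between the controls and by 1.06-fold between the shlinc1253 libraries. At OHT 3D Tet2 stood 1.87-fold and Tet3 1.52-fold over WT. The pairs are of another line and experiment and of a separately normalized table, so they do not measure the spread of the OHT libraries.

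With OHT, counts for the other methylation genes stand beside 6.01% of all genes up and 5.88% down at OHT 3D. At OHT 4D these shares were 6.48% and 8.89%, and counts near them are not a result about these lists. Of the 13 writers and partners, Zfp57 alone was called, up by 0.71 at OHT 3D and 0.68 at OHT 4D. Of 16 expressed genes of base excision and deamination, 2 were up and 1 down at OHT 3D, and 3 up and 1 down at OHT 4D. Among them Gadd45b, a stress-responsive gene linked to demethylation, was up by 0.88 and 1.62. Of 11 expressed genes of the methyl donor cycle, 1 and 2 were down on the 2 days and 0 up. Of 8 readers, 0 were called at OHT 3D and 1 was down at OHT 4D. Of the 7 2-oxoglutarate genes, 2 were down at OHT 3D and 1 at OHT 4D, with 0 up. Idh2 and Idh1, which make 2-oxoglutarate, were down by 1.02 and 0.65 on the log2 scale at OHT 3D. At OHT 4D they were not called, at -0.19 and -0.25. Of 8 expressed modulators, 1 was down and 0 up at OHT 3D, and 0 were called at OHT 4D. The 1 down was Dppa3, which fell by 1.00 at OHT 3D, from 55.7 to 27.2 CPM, but stood at 57.3 at OHT 4D. Fibroblast markers were higher at both OHT times, as given above, and their part in these values was not tested.

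Knockdown of linc1253 left all 9 enzymes short of the threshold. With limma over 13407 genes, 0 members and 0 genes had an adjusted p under 0.05 (0% of genes), and 0 of the 9 had an unadjusted p under it, where 7.45% of genes had. edgeR on recovered reads also called 0% and DESeq2 0.373%, with 0 members in either. Members ranged from -0.18 (Dnmt3b) to 0.11 (Tet2), and their adjusted p from limma from 0.72 to 0.96.

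Uhrf1 came nearest, at 594 and 579 CPM with control shRNA and 540.5 and 511 with shlinc1253. Its log2-fold-change was -0.16 ± 0.09 (SE), with a 95% interval of -0.37 to 0.05 and a limma adjusted p of 0.72. Dnmt1 stood at 527 and 566 against 511 and 499 CPM and changed by -0.11 ± 0.09, adjusted p 0.80 by limma. Tet3 stood at 20 and 21.2 against 19.5 and 18.5 CPM. Dnmt3a had 228 and 249 against 251 and 209, and Dnmt3b 259 and 371 against 265 and 282. Dnmt3l had 324 and 397 against 331 and 335, and Tdg 97.4 and 106 against 94.4 and 105. Tet2 stood at 264 and 286 against 285 and 309 CPM. The widest interval was that of Tet1, -0.70 to 0.45, which holds the -0.64 seen for Tet1 at Tc 2D. That depends on the model. With replicate number as a block, a pairing that no label gives, the Tet1 interval was -0.24 to -0.00285, with a limma adjusted p of 0.16.

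The last comparison asked whether Pontin sat at the promoters of these genes in untreated ZHBTc4 cells. Read midpoints from 2.5 kb before to 500 b after the annotated gene start were counted in the Pontin ChIP (40729076 reads) and the GFP ChIP (17185883 reads), 1 library each. The median log2 ratio of scaled reads was 0.36 over the 9 promoters and 0.34 over 21178 protein-coding promoters, so the 9 as a group lay where promoters in general did.

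In this window Tet3 and Uhrf1 had the highest ratios of the 9, an order that depends on the window: within 1 kb either side of the start, Dnmt3b was highest at 1.67 and Tet3 stood at 0.70. Within 1 kb the median of all promoters was 0.53, and Dnmt3b had 68 Pontin and 9 GFP reads. In the first window Tet3 had 54 Pontin and 10 GFP reads, a log2 ratio of 1.19 (95% counting interval 0.20 to 2.33), above 90.4% of promoters. Uhrf1 had 96 and 23 reads and a ratio of 0.82 (0.15 to 1.54), above 77.9% of promoters. Both intervals lie above 0, but they cover the median of all promoters. Dnmt3b at 0.61, Tdg at 0.47, Dnmt3a at 0.36, Dnmt3l at 0.17 and Tet2 at 0.14 had intervals that held 0. Which intervals held 0 also depended on the start used. The RefSeq starts of Dnmt3a gave 0.58, 0.76 (0.08 to 1.48) and 0.17, and those of Uhrf1 0.83 and 0.43 (-0.22 to 1.12).

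Tet1 and Dnmt1 were lowest. Tet1 had 80 Pontin and 43 GFP reads, a ratio of -0.35 (-0.90 to 0.22), and Dnmt1 94 and 52 reads, a ratio of -0.39 (-0.89 to 0.13). The annotated start of Tet1 lies apart from its RefSeq start, where the Pontin and GFP reads were 75 and 74 and the ratio -1.23 (-1.71 to -0.74), with 1.84% of gene starts lower. With 1 read kept per position and strand, the reads there were 66 and 37 and the ratio -0.54. Counting over 1 kb on either side of the annotated start gave -1.17 for Tet1 and 0.50 for Dnmt1, which thus depended on the window.

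**Figure D5:**
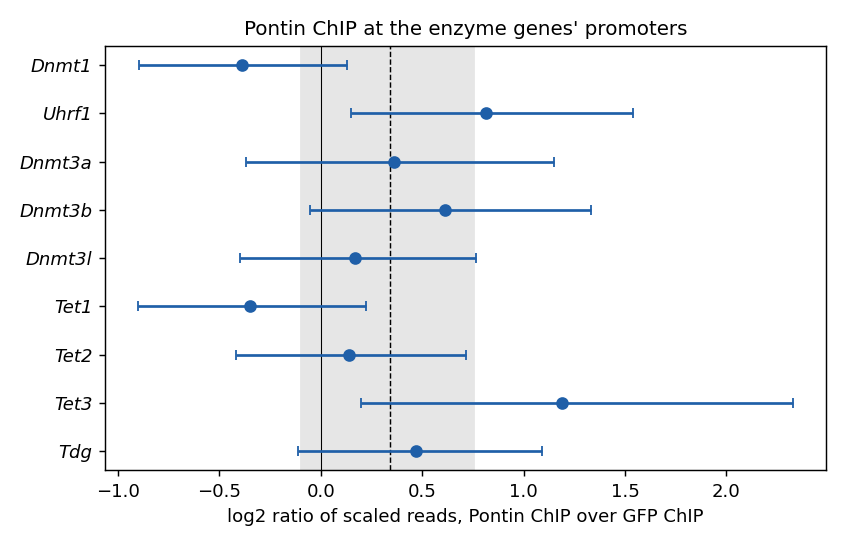
Log2 ratio of scaled reads in the Pontin ChIP over the GFP ChIP at each promoter, with 95% counting intervals; the dashed line is the median of all promoters (0.34) and the grey band their middle 50%. Tet3 is highest at 1.19 and Dnmt1 lowest at -0.39.

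Genes whose changes over the 4 comparisons (OHT 3D, OHT 4D, Tc 2D and linc1253 knockdown) were nearest to those of the 3 members that changed most at Tc 2D were ranked by root mean square difference among 9957 genes. For Dnmt3l they were Pnma2 (0.12), Cyct (0.12) and Lama3 (0.12). For Tet3 they were Aff1 (0.11), Tanc2 (0.13) and Irs2 (0.17), and for Dnmt3a G6pdx (0.03), Nolc1 (0.08) and Prune2 (0.08). Pnma2 changed by -3.38 at Tc 2D beside -3.22 for Dnmt3l, and Aff1 by 2.43 beside 2.49 for Tet3.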

How the data were processed

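Poly(A) mRNA of 8 libraries and ChIP DNA of 2 libraries were analysed. Per the submitters' processing notes the tools were TopHat, Bowtie2, HTSeq and edgeR with the NCBIM37 build, versions and strand setting not given in the sources used here; the TruSeq v2 kit does not mark strand, so reads of Tdg (6.83% of its exon bases), Dnmt3l (2.24%) and Dnmt3a (0.80%) that overlap opposite-strand genes cannot be told apart. The authors deposited CPM (reads scaled to library size, with TMM factors) in 2 tables normalized separately, and mapped ChIP reads with a mapping quality score per read. Whole reads were recovered from the CPM steps of each library: 100% of values lay within 0.01 read of a whole number. Genes above 1 CPM in at least 1 library of a table were kept.

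Comparisons with 1 library per group used log2(CPM + 1) and a limit of 0.58, with exact Clopper-Pearson intervals that cover counting error only. The linc1253 comparison used limma 3.58.1 with trend and Benjamini-Hochberg adjustment over all genes; edgeR and DESeq2 ran on recovered reads. Replicates came from infections that no label separates, so p-values measure the spread between these libraries. Python 3.11.15 and R 4.3.3 were used, the steps were tested on simulated data, and CpG were counted in the 250 bases before RefSeq starts. The 9 genes, the gene lists and the tests were chosen with earlier results of these data known. Named genes were all members, 3 nearest genes for each of 3 members and genes from the lists. For each comparison and list up to 2 called genes with the largest change were picked, and not all of these are printed. Uhrf2, Hells and the remaining single genes named beside them were chosen after their values were seen. Length correction, the OHT 4D against OHT 3D comparison and ChIP at RefSeq starts were added after the values were seen.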

Additional observations from a re-analysis of the deposited data

Results flagged for a closer look

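The 3 Tet genes had values above WT at OHT 3D and below WT at OHT 4D, each from 1 library per day, though at OHT 4D only Tet1 was called. Tet1 was at 0.61 and -0.99 against WT, a difference of -1.60 on the log2 scale. Tet2 was at 0.90 and -0.17, a difference of -1.07, and Tet3 at 0.60 and -0.20, a difference of -0.81. The difference between the days was not tested, since each day has 1 library, and the 3 genes have long transcripts, which as a class were lower at OHT 4D. After the length trend was subtracted, Tet2 and Tet3 stood at 0.18 and 0.25 at OHT 4D.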

How the results depend on the processing

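With a limit of 1 in place of 0.58, 0 members were called up at OHT 3D, 0 down at OHT 4D and 3 down at Tc 2D. With the running median over transcript length subtracted, chosen after seeing the data, 1 was called up at OHT 3D and 1 down at OHT 4D; at OHT 4D Dnmt3a, Tet2, Tet3 and Tdg, none of them called, then changed sign. A pseudocount of 3 left 2 genes called up at OHT 3D. At Tc 2D the counts were otherwise 6 down and 1 up, against the ZHBTc4 controls too, though with other genes. Leaving out each shRNA library, no member was called, and the log2-fold-change ran from -0.19 to 0.076 for Dnmt3a, -0.44 to 0.076 for Dnmt3b, -0.25 to 0.039 for Dnmt3l, -0.41 to 0.17 for Tet1 and -0.10 to 0.045 for Tdg, so that these 5 have no stable sign. With replicate number as a block, 0 members were called up and 0 down, while 933 genes were up and 1027 down, against 0 without it; deviations of same-numbered libraries correlated at 0.67 over 13407 genes, which with 2 numbers is a hint only, and nothing in the labels pairs them. In that fit Uhrf1 had an adjusted p of 0.073 by limma. The ChIP ratios of Dnmt1, Dnmt3b and Tet1 moved with the window, to 0.50, 1.67 and -1.17, and those of Dnmt3l and Tdg with reads of the plus strand only, to 0.90 and 1.42. One library per condition limits every comparison with WT, and 10 GFP reads limit Tet3 in the ChIP. In the 1 kb window 9 GFP reads limit Dnmt3b.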
